A study of Gallus gallus with 6 samples.

Results

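Genes of the WNT pathway were examined for open chromatin in the abdominal fat of 6 chickens. The list names 43 genes, chosen for their known place in the pathway as ligands, receptors, co-receptors, cytosolic and nuclear transducers and secreted inhibitors. Of these, 41 were found by symbol among the 17839 protein-coding genes that RefSeq places on the chromosomes of GRCg7b, all but GSK3B and DKK1. The birds came from the NEAUHLF broiler population, which is known to have been selected in opposite directions for abdominal fat, and the labels name the lines FL and LL, with 3 birds per line and 1 library per bird. No treatment is named, and no source used here gives the age or sex of the birds. Open chromatin was read out by ATAC-seq: Tn5 transposase inserts adapters where nucleosomes leave DNA free, and the authors' peak caller listed the open stretches of each library. The tissue is a mixture of cell types, so fewer cells of a type and a lower accessibility per cell cannot be told apart.

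WNT ligands are secreted, lipid-modified glycoproteins that bind frizzled receptors on the surface of a nearby cell. Together with the co-receptors LRP5 and LRP6 they hold back the destruction complex of APC and AXIN proteins, so that β-catenin accumulates and acts with TCF and LEF factors on target genes. Other ligands signal without β-catenin through receptors such as ROR2 and RYK. In mouse and human cells, signalling through β-catenin is known for keeping preadipocytes from becoming fat cells, and WNT5A is known from mouse adipose tissue as a signal of inflammation that SFRP5 counters.

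A gene was counted as occupied in a library if a peak lay within 1 kb of either of its annotated ends. The table of genes has no strand, so the end at which transcription starts could not be told from the other, and exons, introns and UTRs were not separated. List length was 58060, 32066 and 23188 peaks in FL and 73410, 23316 and 15628 in LL. Here and throughout, such values stand in the order of replicates 1 to 3 of the line. The background over the genome, used in place of depth, was between 2.23 and 8.73 fragments at a base and highest in LL replicate 3, the library with the shortest list. FL replicate 1 and LL replicate 1 had the longest lists, and 69.5% and 72.3% of all coding genes were occupied in them, against 41.5% to 56.6% in the other libraries. The tissue label was checked with 11 adipocyte genes, of which 11, 9 and 8 were occupied in FL and 11, 10 and 7 in LL, a larger share than of all coding genes in every library. The share of 6 mesothelial genes was also larger in every library, so this check is not particular to adipocyte genes.

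Of the 9 frizzled receptor genes on the list, 5 had a peak at an end in all 6 libraries. Of the 15 ligand genes on it, 0 did. WNT11B, a ligand gene outside the list, also had such a peak in all 6 libraries. Of the 41 members, 8 had an occupied end in all 6 libraries (19.5%, against 35.7% of all coding genes) and 8 in 0 libraries (19.5%, against 22.8%). The 8 in all libraries were the receptor genes FZD1, FZD3, FZD7, FZD8 and FZD10, the co-receptor gene ROR2, the β-catenin gene CTNNB1 and the inhibitor gene SFRP2. The 8 with no occupied end were 6 ligand genes, WNT1, WNT3, WNT3A, WNT5B, WNT6 and WNT10A, with the receptor gene FZD9 and the inhibitor gene DKK2. No member had both ends occupied in all 6 libraries, as 1.97% of coding genes did. The number of members occupied was 28, 16 and 18 in FL and 32, 13 and 8 in LL.

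**Figure D1:**
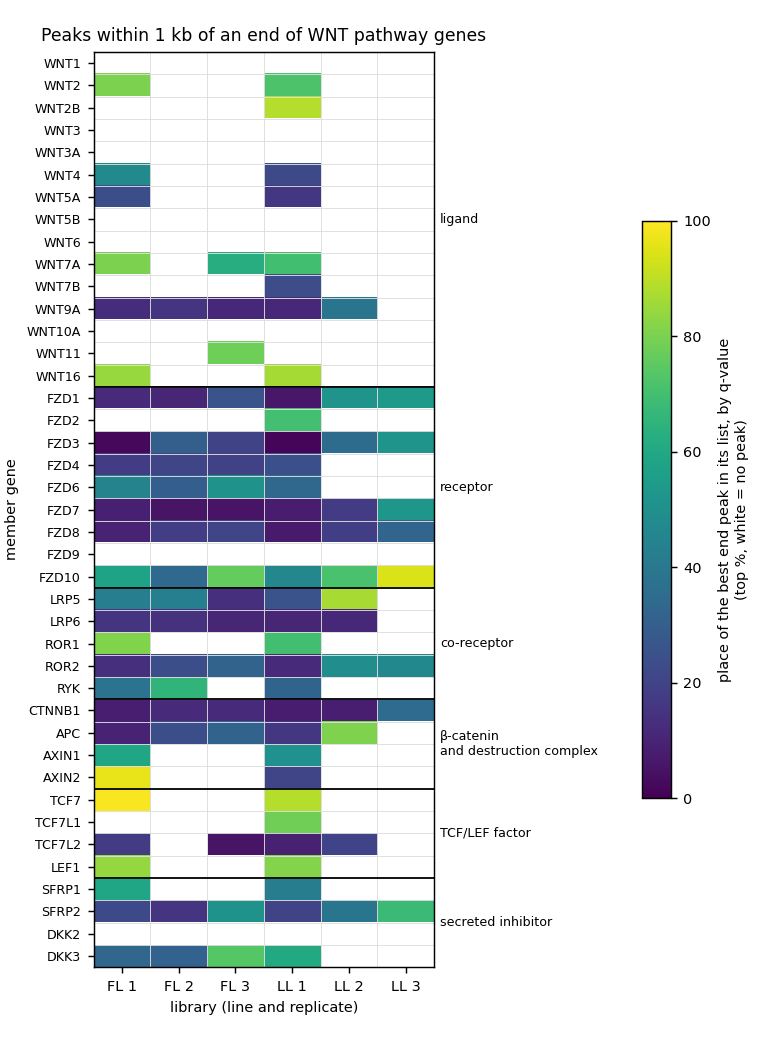
Each row is a member gene, grouped by role, and each column a library. Colour gives the place of the gene's best end peak in that library's list when peaks are ordered by q-value (0 is the top of the list, 100 its end), and white marks no peak within 1 kb of an end. The block of ligands is mostly white, whereas 5 of the 9 frizzled genes are filled in all 6 libraries, and FL replicate 1 and LL replicate 1 hold the most filled cells.

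Among the 15 ligand genes, the number occupied was 6, 1 and 3 in FL and 8, 1 and 0 in LL. WNT9A was the one ligand gene occupied beyond 3 libraries. It lies on chromosome 2 from 2603326 to 2656926, and its low-coordinate end was occupied in 5 libraries, all but LL replicate 3. The fold enrichment of that peak over local background, a value of the authors' peak caller that compares places within 1 library only, was 5.77, 4.48 and 8.63 in FL and 9.08 and 3.84 in LL replicates 1 and 2. The peak stood in the top 11.0% to 15.0% of the lists of 4 of these libraries and in the top 38.7% in LL replicate 2. WNT3A, a ligand that signals through β-catenin, lies next to it on chromosome 2, from 2481342 to 2572222, and had no peak at either end in any library.

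The other ligand genes with an occupied end were occupied in 1 to 3 libraries. WNT5A, a ligand known for signalling without β-catenin, had a peak beyond its high-coordinate end in FL replicate 1 and LL replicate 1, at a fold enrichment of 3.93 and 5.42 and in the top 24.2% and 16.1% of the lists. A lncRNA gene, LOC121106677, ends 721 bp from that end. WNT4 was occupied in the same pair of libraries, at a fold enrichment of 3.88 and 7.77. WNT2 and WNT16 were also occupied in that pair alone, by peaks in the weaker part of both lists, in the top 72.1% to 86.5%. WNT7A was occupied in FL replicates 1 and 3 and LL replicate 1, WNT2B and WNT7B in LL replicate 1 alone, and WNT11 in FL replicate 3 alone. WNT7B had the strongest of these peaks from a single library, at a fold enrichment of 7.42 and in the top 23.5%. Its summit lay 1617 bp outside the gene, and with windows of 500 bp WNT7B was occupied in 0 libraries of each line.

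Among the 9 frizzled receptor genes, 7 were occupied in every FL library, and 8, 5 and 5 in LL. FZD7 lies on chromosome 7 from 11299860 to 11303860, and the peak at its low-coordinate end had a fold enrichment of 5.53, 5.66 and 9.48 in FL and 6.67, 4.19 and 2.70 in LL. It stood in the top 5.15% to 17.5% of 5 lists and in the top 52.8% of the list of LL replicate 3. The summit lay 119 to 144 bp outside the gene in all 6 libraries. FZD8, on chromosome 2 from 12761326 to 12764489, had a fold enrichment of 5.07, 4.04 and 6.27 in FL and 6.95, 4.34 and 3.24 in LL. Its open stretch was among the widest of the members, up to 2124 bp in LL replicate 1. The summit lay 49 and 82 bp outside the gene in FL replicates 3 and 1, and 855 to 876 bp outside it in the other 4 libraries.

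FZD3 had the best-placed peak of any member. It lies on chromosome 3 from 105634168 to 105686155, and its peak had a fold enrichment of 11.0, 3.96 and 7.97 in FL and 16.2, 4.20 and 3.07 in LL. It was in the top 2.14% in FL replicate 1 and the top 1.42% in LL replicate 1, but in the top 20.4% to 51.9% elsewhere. FBXO16, an F-box protein gene, ends or starts 154 bp from the same end of FZD3, so the peak cannot be given to one of these genes. FZD1 had a fold enrichment of 5.69, 5.06 and 6.50 in FL and 9.18, 3.35 and 2.90 in LL. FZD10 had the weakest peak of those occupied everywhere, between 2.55 and 5.50 fold, and at the bottom of the list of LL replicate 3 (top 94.6%). With −log10 q of at least 5 it was occupied in 2 libraries of each line.

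**Figure D2:**
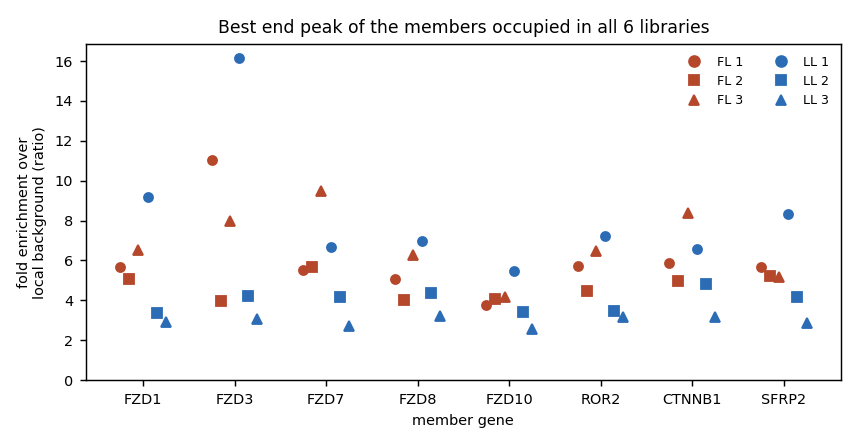
Points give the authors' fold enrichment (ratio to local background, axis from 0) of the best end peak in each library for the 8 members occupied in all 6 libraries, red for FL and blue for LL, with a symbol per replicate. Values compare places within 1 library, and LL replicate 3 lies lowest for every one of the 8 genes, between 2.55 and 3.24. The whole list of LL replicate 3 also has the lowest median fold enrichment, 3.06 against 3.56 to 5.18 in the other libraries, so this is not particular to these genes.

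FZD4 and FZD6 were occupied in every FL library but, of the LL libraries, in replicate 1 alone. FZD4, a receptor known for its part in vessel growth in the retina of mice, lies on chromosome 1 from 188625664 to 188631337. Its peak had a fold enrichment of 3.88, 4.11 and 6.92 in FL and 3.73 in LL replicate 1, and stood in the top 17.3% to 24.5% of these lists. FZD6, known for planar polarity in mouse skin, had 3.52, 3.94 and 5.14 in FL and 5.03 in LL replicate 1. FZD2 had a peak in LL replicate 1 only, at a fold enrichment of 2.98.

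The co-receptor genes were occupied in 1 to 5 of the 5 genes per library, 5, 4 and 3 in FL and 5, 3 and 1 in LL. LRP5 and LRP6, which act with frizzled receptors in signalling through β-catenin, were both occupied in every library except LL replicate 3. The LRP6 peak, on chromosome 1 at the end at 71864350, had a fold enrichment of 5.01, 5.02 and 9.31 in FL and 6.58 and 5.14 in LL replicates 1 and 2, and stood in the top 10.7% to 15.1% of all 5 lists. Another coding gene, LOC101751329, has an end 75 bp away, and the miRNA gene MIR12212 has ends 423 and 482 bp away. LRP5 was less even, in the top 13.6% in FL replicate 3 and the top 87.1% in LL replicate 2. ROR2, a receptor of WNT5A, was the one co-receptor gene occupied in all 6 libraries, at 5.74, 4.45 and 6.48 fold in FL and 7.21, 3.45 and 3.18 fold in LL. Its relative ROR1 was occupied in FL replicate 1 and LL replicate 1 alone, and RYK in FL replicates 1 and 2 and LL replicate 1. The coding gene PGM1 has an end 368 bp from the occupied end of ROR1.

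**Figure D3:**
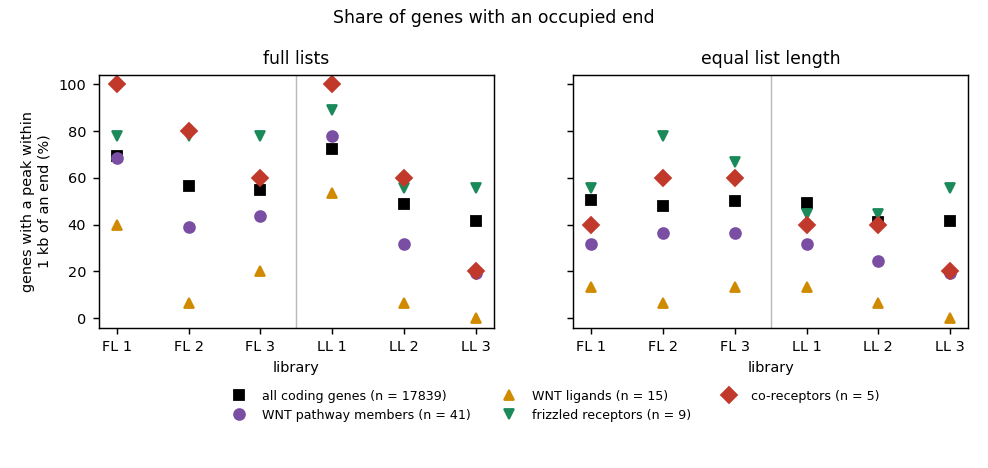
The vertical axis is the percent of genes with a peak within 1 kb of an end, by library, for all coding genes, the 41 members and 3 groups of members, with full lists on the left and with the best 15628 peaks of each list on the right. Of the 3 groups drawn, ligands, frizzled receptors and co-receptors, ligands lie lowest in every library with full lists, between 0% and 53.3%, and the members as a whole lie below all coding genes in every library except LL replicate 1.

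Of the β-catenin group, CTNNB1, on chromosome 2 from 43356658 to 43378265, was occupied in all 6 libraries. Its peak had a fold enrichment of 5.85, 4.96 and 8.39 in FL and 6.59, 4.79 and 3.15 in LL, and stood in the top 8.15% to 12.4% of 5 lists and the top 34.9% of the list of LL replicate 3. In that library the summit lay 758 bp outside the gene, against 92 to 121 bp in the others. A lncRNA gene, LOC107052525, has an end 298 bp away. APC, the scaffold of the destruction complex, was occupied in all but LL replicate 3. AXIN1 and AXIN2, its other scaffolds, were occupied in FL replicate 1 and LL replicate 1 alone. AXIN2, which is also known as a target gene of the pathway, had its peak in the top 20.9% in LL replicate 1 and in the top 96.7% in FL replicate 1. The summits lay 1785 and 1132 bp outside the gene in these libraries. With windows of 500 bp AXIN2 was occupied in 0 libraries of each line.

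The TCF/LEF factor genes were occupied in 3, 0 and 1 of 4 genes in FL and in 4, 1 and 0 in LL. TCF7L2, the factor known from human variants that raise the risk of diabetes, accounted for all of the occupied genes outside FL replicate 1 and LL replicate 1. It lies on chromosome 6 from 27843304 to 28015715, and the peak at its low-coordinate end had a fold enrichment of 4.49 and 10.1 in FL replicates 1 and 3 and 6.40 and 4.18 in LL replicates 1 and 2. These peaks stood in the top 5.16% to 20.2% of their lists, whereas FL replicate 2 and LL replicate 3 had none. TCF7 and LEF1 were occupied in FL replicate 1 and LL replicate 1 by peaks in the top 81.4% to 99.0% of the lists. Another coding gene, LOC124417180, has an end 116 bp from the occupied end of TCF7. TCF7L1 was occupied in LL replicate 1 alone.

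Among the secreted inhibitors, SFRP2, which binds WNT proteins outside the cell, was occupied in all 6 libraries. It lies on chromosome 4 from 19529587 to 19533860, and its fold enrichment was 5.68, 5.21 and 5.16 in FL and 8.34, 4.15 and 2.84 in LL. A lncRNA gene, LOC101748935, has an end 531 bp away. SFRP1, of the same family, was occupied in FL replicate 1 and LL replicate 1 alone, at 3.43 and 5.41 fold. DKK3, a secreted protein of the Dickkopf family, was occupied in all FL libraries and LL replicate 1, at 4.98, 4.37 and 4.41 fold in FL and 4.51 fold in LL replicate 1, where the best peak lay at the other end of the gene. MICAL2 has an end 818 bp from the DKK3 end that was occupied in all 4 of these libraries.

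Many members were occupied in FL replicate 1 and LL replicate 1 and nowhere else. This was the case for 10 of 41 members (24.4%), against 6.87% of all coding genes. They were WNT2, WNT4, WNT5A, WNT16, ROR1, AXIN1, AXIN2, TCF7, LEF1 and SFRP1, and they were all of the members occupied in exactly 2 libraries. In the best 15628 peaks of each list, WNT5A kept 1 library of each line, AXIN2 kept 1 LL library, and the rest of these genes kept none. The share of coding genes with this pair is not given for that cut. Of the coding genes occupied in exactly 2 libraries, 77.6% had this pair. Marker genes of most cell types listed were also occupied most often in this pair. Coding genes as a whole showed the same, with 69.5% and 72.3% occupied in the pair and 41.5% to 56.6% elsewhere. A higher count in the pair is thus not particular to marker genes. Counts of marker genes at equal list length are not given, so whether any cell type differed in the pair was not tested. Endothelial genes were occupied in 10 and 11 of 12 in FL replicate 1 and LL replicate 1, and 1 to 3 of 12 elsewhere, and fibroblast and progenitor genes in 10 and 12 of 12, and 3 to 5 elsewhere. The lymphocyte and neuronal lists did not follow the pair. Lymphocyte genes were at 4, 3 and 3 of 8 in FL and 4, 4 and 1 in LL, and neuronal genes at 3, 3 and 1 of 7 in FL and 2, 0 and 0 in LL. The remaining lists were highest in the pair. Myeloid genes were at 7, 5 and 5 of 9 in FL and 8, 3 and 3 in LL. Smooth muscle genes were at 3, 2 and 1 of 6 in FL and 3, 0 and 0 in LL. Mesothelial genes were at 5, 4 and 4 of 6 in FL and 5, 3 and 3 in LL. Adipocyte genes, at 11 of 11 in both libraries of the pair, were highest there too. List length also moved with the pair, and the part of either in these counts was not tested. With the best 15628 peaks of each list, 13, 15 and 15 members were occupied in FL and 13, 10 and 8 in LL. Of all coding genes, 50.5%, 47.9% and 50.1% were then occupied in FL and 49.3%, 41.3% and 41.5% in LL, so LL replicates 2 and 3 were lowest there too. The ligands were then at 0 to 2 of 15 genes and the frizzled receptors at 4 to 7 of 9.

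Members have fewer neighbouring genes than coding genes at large. The median member had 4 other genes with an end in its windows of 50 kb, against 6 for all coding genes. An end with no end of another gene within 2 kb was found for 38 members and 12439 coding genes, a restriction chosen after the data were examined. At such ends, 55.3%, 28.9% and 34.2% of the 38 members were occupied in FL and 65.8%, 23.7% and 13.2% in LL. The coding genes were at 43.8%, 33.5% and 30.9% in FL and at 47.8%, 26.9% and 22.2% in LL. The members were thus higher in 3 libraries and lower in 3, where the count over all ends had them lower in 5. A gene with both ends free could be counted through either, and the number of free ends per gene was not matched.

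The lines were compared by the number of libraries in which a gene was occupied. The share of members occupied averaged 50.4% ± 15.7 over the FL libraries and 43.1% ± 30.9 over the LL libraries (SD, n = 3 each), and the ranges overlapped. Over all coding genes the means were 60.3% and 54.2%. At equal list length the members averaged 35.0% ± 2.82 and 25.2% ± 6.14, and all coding genes 49.5% and 44.0%. FZD4, FZD6 and DKK3 were occupied in at least 2 more FL than LL libraries, 3 of 41 members (7.32%), against 6.21% of all coding genes, and 0 members in at least 2 more LL libraries, against 1.08%. With full lists, the members' share was near that of all coding genes. All of these 3 lacked a peak in LL replicates 2 and 3, a pattern that 4.88% of coding genes shared, and LL replicates 2 and 3 had 23316 and 15628 peaks in all. In the best 15628 peaks of each list FZD4 was occupied in 3 FL and 0 LL libraries, FZD6 in 2 and 0, and DKK3 in 1 and 0. The FZD4 peak of LL replicate 1, in the top 24.5% of a list of 73410 peaks, fell outside this cut. The share of coding genes at 3 and 0 with this cut is not given, so the count for FZD4 cannot be read against it. The difference for FZD4 was 1 library with windows of 2000 bp, and that for DKK3 was 1 with peaks of at least 178 bp and 0 at ends with no other gene end within 2 kb. In the best 15628 peaks, 4 of 41 members were occupied in at least 2 more FL libraries, against 5.6% of coding genes. In at least 2 more LL libraries there were 0 of 41, against 1.52%. With −log10 q of at least 5 the counts were 5 and 0 of 41, against 6.17% and 0.897%. With peaks of at least 178 bp, the largest of the shortest peaks of the 6 lists, they were 2 and 0 of 41, against 3.3% and 2.16%. The members' share for FL was above that of coding genes in each of these settings. It rests on 2 to 5 genes, and the settings take parts of the same peak lists, so they do not count as separate results. With full lists, no member was occupied in all libraries of one line and none of the other, as 0.275% of coding genes were for FL and 0.0448% for LL.

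Distal regions were counted next. Peaks of all libraries that overlapped were merged, and a merged region was called distal to a gene if it lay within 50 kb of either end and not within 1 kb of any end of any annotated gene. Around the members there were 500 such regions, of which 151 lay inside the member. Of the 500, 21 were called in all 6 libraries (4.2%, against 2.91% of all distal regions) and 219 in 1 library (43.8%, against 52.5%). Without the regions near WNT1, 14 of 490 were called in all 6 libraries (2.86%), near the share of all distal regions. The median member had 8, 2 and 1 distal regions in FL and 9, 2 and 1 in LL, and the median coding gene 5, 1 and 1 in FL and 7, 1 and 1 in LL. Per length of window, members had 1.24 ± 0.0492 times the distal regions of coding genes at large in the FL libraries and 1.18 ± 0.0188 times in the LL libraries (SD, n = 3 libraries each).

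WNT1, with no peak at its ends, carried much of this ratio. It lies near the start of the small chromosome 34, from 17120 to 22528, and its windows held 9, 10 and 9 distal regions in FL and 8, 7 and 7 in LL. Its count stayed between 7 and 10 although list length varied from 15628 to 73410 peaks. Of the 21 distal regions called everywhere, 7 were near WNT1, and 6 of these lay between 459 and 11032, at the end of the chromosome and before the gene. Without WNT1 the ratio was 1.09 ± 0.131 in FL and 1.04 ± 0.125 in LL. For the ligand genes it was 1.19 in FL and 1.15 in LL with WNT1, and 0.744 and 0.776 without it.

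After WNT1, the members with the densest distal regions were FZD4, TCF7L2, WNT5A and WNT5B. FZD4 had 12, 5 and 3 regions in FL and 17, 7 and 1 in LL, and per length of window it averaged 2.72 times the level of coding genes. TCF7L2 had 20, 7 and 7 in FL and 27, 5 and 3 in LL, and 23 of its 34 regions lay inside the gene. WNT5A had 15, 4 and 2 in FL and 16, 4 and 1 in LL, and a region 9986 bp from it, at 8106287 to 8107247 on chromosome 12, was called in all 6 libraries at 4.17 to 11.0 fold. WNT5B, with no peak at its ends, had 16, 2 and 3 in FL and 27, 6 and 3 in LL. The region near it that was called in all libraries, at 61008506 to 61010548 on chromosome 1, lay inside ADIPOR2, an adiponectin receptor gene.

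The members with the lowest density were WNT9A, WNT3 and WNT10A. WNT9A, among the members the ligand gene with the most occupied libraries, had 1 distal region in FL replicate 1 and 1 in LL replicate 1. It had 0 in the other 4 libraries. WNT3 had 2 and WNT10A 3, all in LL replicate 1. WNT6 and WNT10A lie next to each other on chromosome 7 and share part of their windows.

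**Figure D4:**
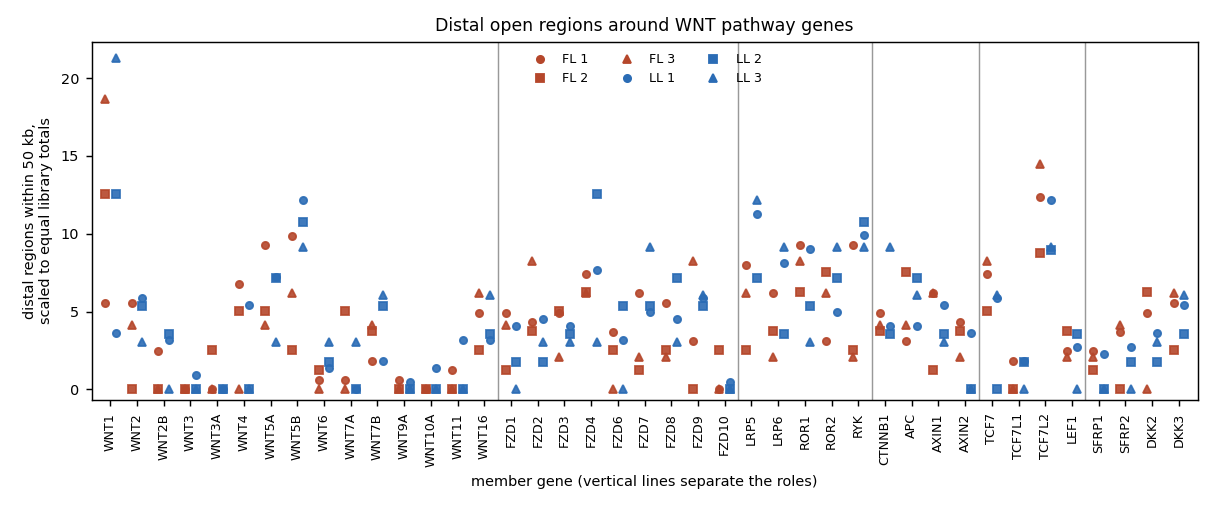
Points give the number of distal regions within 50 kb of each member in each library, scaled so that all libraries have the same total of distal regions, red for FL and blue for LL, with a symbol per replicate. The values of FL and LL overlap for every member with a mean of at least 1 region except WNT6, and WNT1 reaches the highest values, in FL replicate 3 and LL replicate 3.

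By role, the best-placed distal regions called in all 6 libraries were spread over several members. Among ligands it was the region at 459 to 2069 on chromosome 34 near WNT1, in the top 4.71% or better of every list, followed by a region 25144 bp from WNT7B, at 70951606 to 70952548 on chromosome 1, with 6.15, 5.07 and 7.23 fold in FL and 8.55, 4.60 and 3.87 fold in LL. Among receptors it was a region 23277 bp from FZD3 at 105709432 to 105710282 on chromosome 3, inside EXTL3, an enzyme gene of heparan sulfate synthesis. Its fold enrichment was 11.1, 5.71 and 5.40 in FL and 14.2, 9.39 and 7.41 in LL, in the top 0.742% or better of every LL list. ROR2 had one 26904 bp away, in the top 7.69% to 51.4% of the lists. TCF7L2 had one inside the gene, at 27869159 to 27869792 on chromosome 6, with 4.66, 3.63 and 5.38 fold in FL and 6.87, 3.50 and 3.29 fold in LL. APC had one 22001 bp away, inside REEP5, and another inside the gene. No region of this kind was found near a secreted inhibitor.

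The numbers of distal regions were compared between the lines on the log2 scale of scaled number plus 1 with limma, over the 15291 coding genes with a mean of at least 1 region, 36 of them members. At an adjusted p of 0.05, 0 genes were higher in FL and 0 in LL (0.0% each). At an unadjusted p of 0.05 the numbers were 265 (1.73%) and 605 (3.96%), with 0 and 1 among the members. The median difference between FL and LL was -0.14 on the log2 scale over all genes tested and -0.10 over the members, and 15 of the 36 members had a positive difference. RYK, a receptor of the kinase family without kinase activity, was the member under an unadjusted p of 0.05. It had 15, 2 and 1 regions in FL and 22, 6 and 3 in LL, or 9.26, 2.51 and 2.07 in FL and 9.94, 10.8 and 9.12 in LL after scaling, a difference of -1.18 ± 0.457 (log2, SE) with limma adjusted p = 0.849. The difference was -0.52 at equal list length and -0.65 with −log10 q of at least 5. It was -1.51 with peaks of at least 178 bp and -1.59 with windows of 25 kb. Without FL replicate 1 it was -1.69, with limma adjusted p = 0.229. FL replicate 1 was level with the LL libraries, so the lines overlapped.

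WNT6 was the one member whose scaled values did not overlap between the lines. They were 0.617, 1.26 and 0 in FL and 1.35, 1.79 and 3.04 in LL, from 1, 1 and 0 regions in FL and 3, 1 and 1 in LL. The exact two-sided permutation p was 0.1, the smallest that 3 against 3 libraries allow, and limma gave -0.95 ± 0.79 with adjusted p = 0.908. Of all genes tested, 6.47% lay wholly higher in LL and 3.15% wholly higher in FL, against 1 and 0 of the 36 members. The result for WNT6 rests on a few regions per library, and with −log10 q of at least 5 the difference was -0.11.

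Regions called in all libraries of one line and none of the other were rare near the members. Of 654 merged regions within 50 kb of a member, gene ends included, 2 were called in every FL library and in none of LL, against 0.209% of all 100148 regions, and 0 in LL, against 0.0849%. Both lay near WNT1, at 3341 to 3496 and 5554 to 5770 on chromosome 34, between the regions at the chromosome end that were called in all 6 libraries. Their fold enrichment was 3.69, 3.27 and 4.62 and 3.50, 4.02 and 4.85 in FL, and their merged widths were 156 and 217 bp. A difference of at least 2 libraries was found for 11 distal regions in favour of FL (2.2%, against 2.74% of all distal regions) and 14 in favour of LL (2.8%, against 3.53%). These included regions inside LRP5 and RYK called in 1 FL and 3 LL libraries, at 2 places each, and one inside AXIN1 called in 3 FL libraries and 1 LL library.

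Of 71 further genes of the pathway, 64 were found. An end was occupied in all 6 libraries for 18 of them (28.1%, against 35.7% of coding genes). No end was occupied in any library for 8 of the 64, against 22.8% of coding genes. The best-placed were LGR4, a receptor of R-spondins, in the top 3.19% or better of every list, TLE4 and CTBP1, corepressors, in the top 4.03% and 4.77% or better, and FBXW11, a subunit of the ligase that marks β-catenin for breakdown, in the top 6.15% or better. LGR4 had a fold enrichment of 11.4, 9.78 and 14.6 in FL and 12.8, 6.41 and 5.22 in LL, and its peak stood higher in each of the 6 lists than the best end peak of any member. Cytosolic genes of the pathway were occupied in 12 to 16 of 16 genes per library. Of 4 further ligand genes, 1 was occupied in each library, WNT11B at its high-coordinate end. Its fold enrichment was 7.43, 6.19 and 10.2 in FL and 11.3, 4.89 and 3.34 in LL. Both ends of WNT11B have an end of another gene within 2 kb.

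At least 2 more FL libraries were occupied for 8 of these 64 genes (12.5%, against 6.21% of coding genes) and at least 2 more LL libraries for 2 (3.12%, against 1.08%). The former were FZD5, ZNRF3, RSPO2, RSPO3, DVL1, DACT2, SFRP4 and SOSTDC1. All but RSPO3 had the pattern of FZD4, with all FL libraries and LL replicate 1. The latter were RSPO1 and CELSR1, occupied in FL replicate 1 and all LL libraries. The RSPO1 peaks of LL replicates 2 and 3 stood in the top 91.6% and 92.3% of their lists, and with −log10 q of at least 5 RSPO1 was occupied in 1 library of each line. CELSR1 was occupied in 1 library of each line with windows of 500 bp and in 3 of each with windows of 2000 bp. Among the genes with more FL libraries, RSPO3 was occupied nowhere with −log10 q of at least 5, and RSPO2 nowhere with windows of 500 bp. With peaks of at least 178 bp, FZD5, RSPO2, DVL1 and SOSTDC1 were in 2 FL libraries and 1 LL library. With windows of 2000 bp, RSPO3, DACT2 and SFRP4 were in 3 FL and 2 LL libraries. ZNRF3 stayed at 3 and 1 in each of these settings. R-spondins are secreted proteins that strengthen WNT signals by keeping frizzled receptors at the surface. RSPO2 had 4.94, 6.28 and 6.21 scaled distal regions in FL and 2.26, 0 and 3.04 in LL, and RSPO1 4.32, 3.77 and 2.07 in FL and 7.23, 5.38 and 6.08 in LL. After scaling, the lines did not overlap for either gene, in opposite directions, each with an exact two-sided permutation p of 0.1, the smallest possible. Before scaling, RSPO2 had 8, 5 and 3 regions in FL and 5, 0 and 1 in LL. RSPO1 had 7, 3 and 1 in FL and 16, 3 and 2 in LL. These unscaled numbers overlapped, so both results rest on a few regions in the shorter lists. Of the 62 further genes tested, 3 lay wholly higher in FL (4.84%, against 3.15% of all genes tested) and 5 wholly higher in LL (8.06%, against 6.47%). The others were WIF1 and TRABD2A, higher in FL, and SFRP4, WNT8B, TNKS2 and FZD5, higher in LL. For SFRP4 and FZD5 this was opposite to the pattern at their ends. It too rests on few regions: SFRP4 had 3, 0 and 1 in FL and 6, 2 and 1 in LL before scaling. FZD5 had 5, 0 and 1 in FL and 10, 2 and 2 in LL.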

How the data were processed

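Per the submitters' processing notes, the authors used MACS3 3.0.0b1 with FastQC, Trim Galore, BWA, SAMtools and, at version 2.30.0, bedtools, on the assembly GRCg7b. Settings, duplicate removal and any Tn5 shift: not given in the sources used here. Each library has a deposited list of peaks with a score, a fold enrichment ratio and −log10 p and q-values per peak. Read totals are not in the lists; the genome-wide background was solved from the fold and −log10 p columns (relative tolerance 1e-04, all peaks solved). A place without a called peak is not shown to be closed.

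Genes came from the RefSeq table of GRCg7b, without strand, so the planned use of transcription starts and of promoter sequence was not run, and no sequence is printed. Peaks were merged at an overlap of at least 1 bp. Scaled distal numbers were tested with limma 3.58.1 in R 4.3.3 (trend, Benjamini-Hochberg) and by exact permutation of the 20 assignments of libraries. The limma step was also run on simulated counts. Their spread within a line was set and not taken from these libraries, so that run does not show what limma could detect here. The 6 libraries come from separate birds, as the series' design states. Genes were named by fixed rules on occupied libraries, place in the list and distal density. RYK and the single regions inside LRP5, RYK and AXIN1 were chosen after their values were seen. The members and lists were chosen with earlier results of these data known. Replicate numbers were not treated as pairs.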

Additional observations from a re-analysis of the deposited data

How the results depend on the processing

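Read totals are not in the lists, so what depth limits was not tested, and the background was highest in LL replicate 3, which has the fewest peaks. The mean shares of occupied members, 50.4% in FL and 43.1% in LL, were 35.0% and 25.2% at equal list length. Leaving out 1 library, they ranged from 41.5% to 56.1% in FL and from 25.6% to 54.9% in LL. The number of members with at least 2 more FL libraries was 3, but 5 with −log10 q of at least 5, and 0 to 5 without 1 library. With 1 library left out, the rule was a difference of at least 2 of 3 in the share of each line's libraries. By that rule 5 members passed when LL replicate 1 was dropped and 0 when LL replicate 2 or LL replicate 3 was, where a gene in all FL libraries and 1 of 2 LL libraries falls short of that share. In the other direction it was 0, but 1 with a window of 2000 bp at gene ends, and 0 to 0 without 1 library. The share of all coding genes is not given for the counts without 1 library or with the window of 2000 bp. Whether these counts differ from that share cannot be read here. The ratio of distal density, 1.24 in FL and 1.18 in LL, was 1.35 in FL at equal list lengths and 1.22 in LL with −log10 q of at least 5. It was 1.44 and 1.34 with windows of 25 kb, and, in alternatives chosen after the data were seen, 1.155 and 1.11 per length outside gene ends and 1.09 and 1.04 without WNT1. Leaving out 1 library gave 1.22 to 1.27 in FL and 1.17 to 1.19 in LL. Regions called in one line near members were 2 in FL and 0 in LL. At equal list lengths they were 4 and 7 of 211, where all regions had 306 and 548 of 32503. With peaks of at least 178 bp they were 1 of 592 in FL, where all regions had 59 of 85060. Leaving out 1 library gave 2 to 15 of 654 in FL. The highest was without LL replicate 1 (1973 of all 100148 regions), and 4 were found without FL replicate 3 (815 of all). In LL it gave 0 to 13 of 654, the highest without FL replicate 1 (2038 of all). There were 4 without LL replicate 3 (1086 of all) and 1 without LL replicate 2 (269 of all). Coding genes past adjusted p 0.05 with limma, 0 and 0, were 6 in FL and 2 in LL with −log10 q of at least 5, 5 and 2 with peaks of at least 178 bp, and 2 and 2 with windows of 25 kb. Without 1 library they were 0 to 1 in FL, the 1 without LL replicate 3, and 0 to 0 in LL. The cause of these changes was not tested. With the replicate number as a block, 0 genes passed in either direction, and WNT6, whose difference such a block cannot change, had limma adjusted p = 0.724. Deviations of same-numbered libraries from their line means correlated at 0.383, 0.0457 and 0.0981 across genes. Those of different-numbered libraries correlated at -0.263 to 0.142. The value of FL replicate 1 and LL replicate 1 was thus the largest, and what they share was not tested. The numbers were not taken as pairs. The start-site alternative was not run, as the gene table has no strand.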
